A study of Mus musculus with 6 samples.

Results

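Chemokines, interleukins, tumour necrosis factor (TNF) family ligands, their receptors and a few adhesion and recognition genes were followed in brown adipose tissue of mice whose brown adipocytes lack seipin by design. Members were taken from the table by symbol, as every row whose name begins as a numbered Ccl, Cxcl, Ccr, Cxcr or interleukin gene, as Cx3c, Tnfrsf or Tnfsf, together with Tnf, Cd14, Ackr3, Spp1, Icam1 and Vcam1. This gave 62 of the 12966 genes in the table. Ackr3 was among them under its older symbol Cxcr7, and Tnf and Spp1 were not analysed here. The tissue came from BKO mice, which carry floxed Bscl2 (Bscl2f/f) and Ucp1Cre (3 libraries), and from Ctrl mice, which carry floxed Bscl2 without Cre (3 libraries). All were 10 week old male C57BL/6J animals. Bscl2 encodes seipin, a protein of the endoplasmic reticulum that acts where lipid droplets form, and the Ucp1 promoter drives Cre in brown adipocytes. Ctrl mice lacked Cre, so the deletion and the transgene itself cannot be told apart.

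Chemokines are small secreted proteins that guide white blood cells along a gradient through G protein-coupled receptors, and are named by the spacing of their first cysteines. Interleukins signal mostly through paired receptor chains and the JAK-STAT pathway, and TNF family ligands through trimeric receptors that feed the NF-kB pathway or cell death. In adipose tissue much of this signalling passes between adipocytes, stromal and endothelial cells and resident macrophages, and adipocytes themselves carry many of the receptors.

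Values were FPKM, which are fragments that the authors divided by transcript length and sequencing total, so levels can be set side by side between genes. Bscl2 checked the labels, at 16.0% of the Ctrl level in BKO, with 16.5, 16.9 and 18.9 FPKM in the BKO libraries, against 116, 104 and 106 FPKM in the Ctrl libraries (exact two-sided permutation p = 0.1, the smallest that 3 against 3 libraries allow). Values per library are given throughout in the order of their numbers, 1 to 3. All 12 brown adipocyte markers were listed, and their summed level was 20786 to 23119 FPKM in BKO and 20242 to 21115 FPKM in Ctrl. The most abundant of them averaged 11162 FPKM, so it carried much of this sum. At an unadjusted p below 0.05 (limma), 2 were higher in BKO (against 6.63% of all tested genes) and 1 lower (against 3.52%). BKO-3 stood apart from the other libraries, because its values sum to 2808870 FPKM, against 1119230 to 1617960 in the others. The mitochondrial tRNAs mt-Ty and mt-Tc held 49.3% of the BKO-3 sum and 32.0% to 48.7% of the other sums. Without them the sums were 1424150 FPKM in BKO-3 and 734512 to 880935 FPKM in the others. BKO-3 is also the one library with no value above 0 and below 0.486 FPKM, where the others hold 341 to 632 such values. A gene below that level in BKO-3 would thus not be in the table unless it was at 0. The number of reads is unknown. The labels do not say that each library came from its own animal, so p-values cover the spread among libraries alone, and that spread may be technical.

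Most members were expressed at low levels. Over the 6 libraries 16 members had a mean under 1 FPKM, 32 had 1 to 5 FPKM, 9 had 5 to 20 FPKM and 5 had 20 FPKM or more. The 5 most abundant were the scavenging chemokine receptor Cxcr7, the interleukin 15 receptor chain Il15ra, the TNF receptor Tnfrsf1a, the chemokine Cxcl12 and the shared signalling chain Il6st. Of these, 3 are receptor chains of cytokines that act on many cell types, and none of the 5 passed the test between genotypes. The plot of all members by library shows the levels.

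**Figure D1:**
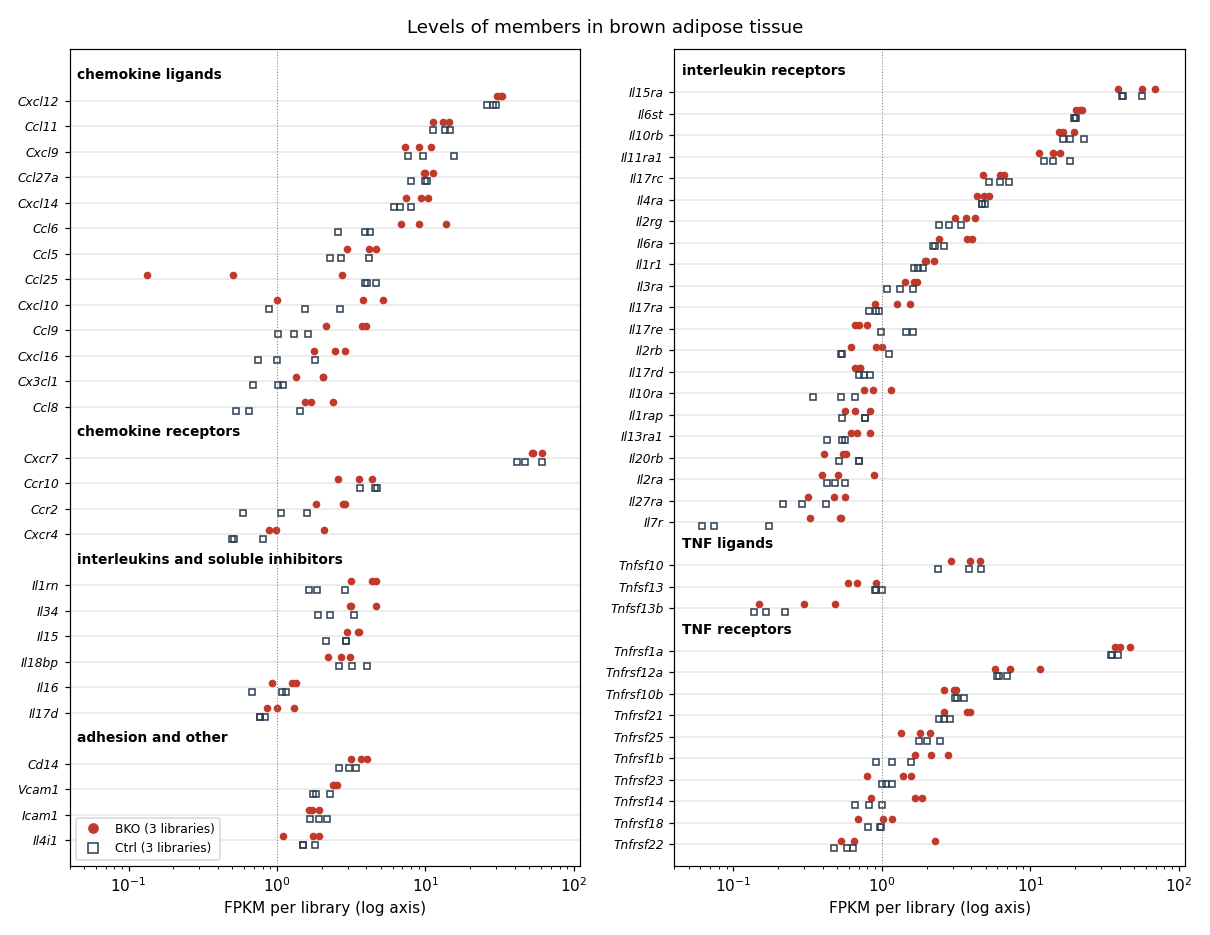
FPKM of 61 of the 62 members in each library on a log axis, grouped by role, with BKO as filled circles above Ctrl as open squares and a dotted line at 1 FPKM. Most members lie between 0.3 and 20 FPKM; Ccl25 is the one member with 2 BKO libraries far below all 3 Ctrl libraries, at 0.132 and 0.503 FPKM against 3.90 to 4.64 FPKM.

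The comparison of BKO with Ctrl asked how these genes differ when seipin is lost from brown adipocytes. The tested members with an unadjusted p below 0.05 (limma) that stood higher in BKO did so by 1.44-fold to 2.75-fold in mean FPKM. They were the chemokines Ccl6, Ccl9, Ccl8, Cx3cl1 and Cxcl16, the monocyte receptor Ccr2, the interleukin 1 antagonist Il1rn and the receptors Il6ra and Tnfrsf1b. The chemokine Ccl25 and the receptor Il17re stood lower, at 27.0% and 53.3% of Ctrl. None of these differences passed the test across the whole table. Of 62 members, 46 had a mean of at least 1 FPKM and were tested on the log2(FPKM + 1) scale, and 0 were called at 0.05 after Benjamini-Hochberg adjustment of the limma p over 11397 genes, where 0.158% of tested genes were called higher and 0.00877% lower. The lowest adjusted p of a member was 0.198.

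At an unadjusted p below 0.05 (limma), 9 of the 46 tested members were higher in BKO (19.6%) and 2 were lower (4.35%). Over all tested genes the shares were 6.63% and 3.52%. With quantile normalization 8 members were higher and 2 lower, against 5.56% and 5.47% of all tested genes. The groups did not overlap in 12 members that were higher (26.1%) and 2 that were lower (4.35%), against 9.06% and 6.82% of all tested genes. The median log2 change was 0.17 over the tested members and 0.01 over all tested genes. A positive change was seen in 33 members (71.7%, against 51.6% of all tested genes) and a negative one in 13 (against 48.4%). By library, the median log2(FPKM + 1) of the tested members was 2.06, 2.23 and 2.01 in BKO and 2.03, 1.87 and 1.77 in Ctrl. BKO-3 lay below Ctrl-1, so these medians overlapped between the groups. In 6 of the 46 tested members (13%), which were Ccl8, Cx3cl1, Il16, Il17ra, Il17re and Tnfrsf14, 1 group had a mean under 1 FPKM, against 2.42% of all tested genes, so these passed the filter through the group where they were higher. Without BKO-3 the unadjusted counts were 17 higher and 3 lower, 8 and 2 of them shared with the 6-library fit, against 8.76% and 5.27% of all tested genes.

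**Figure D2:**
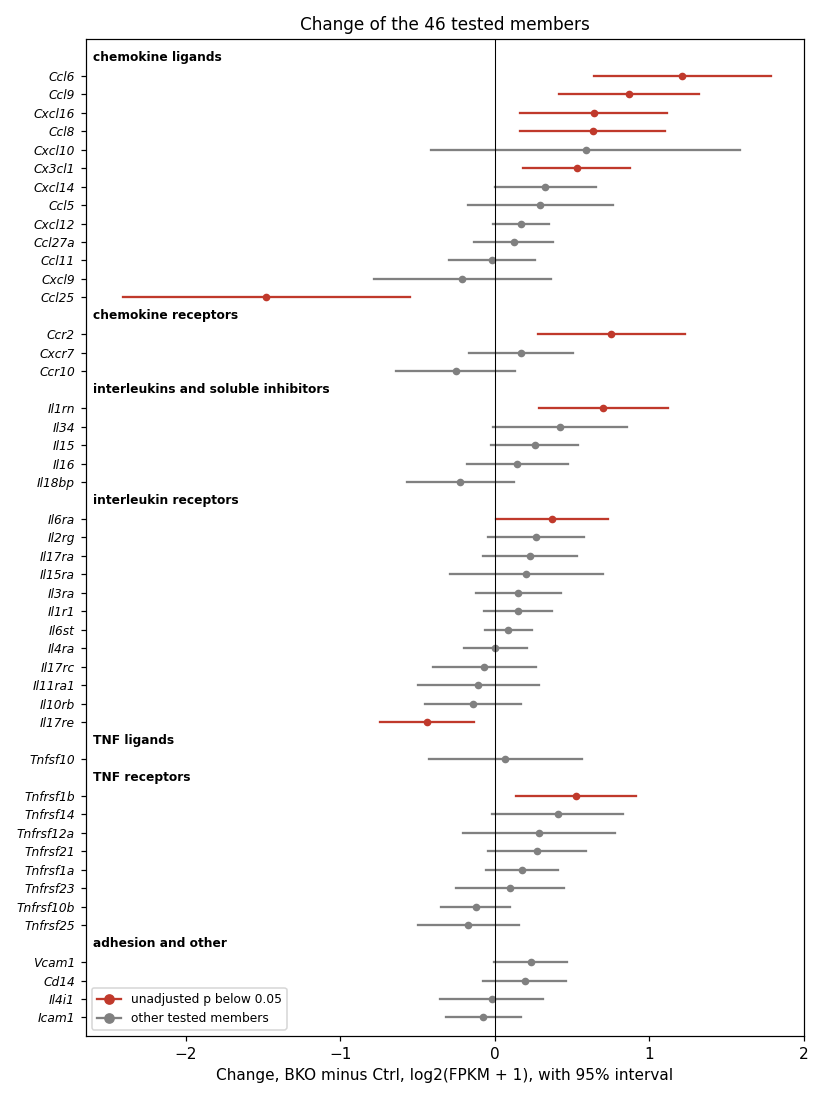
Difference between BKO and Ctrl on the log2(FPKM + 1) scale for the 46 tested members, by role, with 95% intervals from limma; red marks an unadjusted p below 0.05. The points run from -1.48 for Ccl25 to 1.21 for Ccl6, and 33 of 46 lie above 0.

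Of the 13 chemokine ligands, all tested, 5 were higher and 1 lower at an unadjusted p below 0.05 (limma, against 6.63% and 3.52% of all tested genes), with a median log2 difference of 0.33. Of these 5, Ccl8 and Cx3cl1 averaged 0.871 and 0.937 FPKM in Ctrl. They passed the filter only through BKO, where they were higher. Among the 13 ligands, Ccl6 and Ccl9 had the largest positive differences. Both are CC chemokines of rodents made by macrophages and other myeloid cells. Ccl6 stood at 13.7, 9.01 and 6.83 FPKM in BKO, against 4.26, 2.57 and 3.92 FPKM in Ctrl. Every BKO library lay above every Ctrl library, with BKO-1 highest and BKO-3 nearest to Ctrl. The ratio of means was 2.75 and the log2 difference 1.21 (SE 0.244, limma with Benjamini-Hochberg adjusted p = 0.198). For Ccl9 the values were 3.74, 3.97 and 2.13 FPKM in BKO and 1.61, 1.30 and 1.011 FPKM in Ctrl, again without overlap and with BKO-3 the lowest of its group. The ratio was 2.51 and the log2 difference 0.87 (SE 0.194, limma with Benjamini-Hochberg adjusted p = 0.225).

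Ccl6 and Ccl9 lie next to each other on chromosome 11, and Ccl5 is the next coding gene beside Ccl9 (RefSeq, GRCm38.p6). Ccl5, which attracts T cells and monocytes, stood at 2.97, 4.17 and 4.64 FPKM in BKO and 4.19, 2.69 and 2.27 FPKM in Ctrl. Here the groups overlapped, and the log2 difference was 0.29 (95% interval -0.18 to 0.77, limma). The windows from 250 bases before to 50 bases after the starts of Ccl6 and Ccl9 are shown because these neighbours had the highest ratios of any tested members. They are RefSeq sequences of GRCm38.p6, both on the minus strand, for Ccl6 at chr11:83593038-83593337 and for Ccl9 at chr11:83578587-83578886, written from the upstream end, and capitals mark stretches of at least 10 bases found in both.
Ccl6: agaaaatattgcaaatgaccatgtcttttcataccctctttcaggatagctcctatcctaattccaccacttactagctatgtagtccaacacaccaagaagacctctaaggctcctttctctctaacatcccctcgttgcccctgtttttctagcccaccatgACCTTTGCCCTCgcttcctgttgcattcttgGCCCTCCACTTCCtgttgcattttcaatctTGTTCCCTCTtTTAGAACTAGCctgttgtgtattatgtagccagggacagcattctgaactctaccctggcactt
Ccl9: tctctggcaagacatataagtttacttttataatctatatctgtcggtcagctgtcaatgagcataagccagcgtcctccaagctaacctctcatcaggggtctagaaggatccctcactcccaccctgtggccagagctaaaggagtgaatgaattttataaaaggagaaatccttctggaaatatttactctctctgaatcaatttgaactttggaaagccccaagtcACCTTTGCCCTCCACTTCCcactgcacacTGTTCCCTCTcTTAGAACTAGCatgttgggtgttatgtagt
The windows share 4 such runs, of 13, 12, 11 and 10 bases, at different distances from the start. The 11-base run lies at -14 to -4 in Ccl6 and at 21 to 31 in Ccl9, counted from the first transcribed base as 1. The longest identical run of their transcripts is 25 bases (GENCODE vM21), so few reads could be shared between them.

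Motif letters were searched on both strands of these windows. The NF-kB consensus was found once in the Ccl9 window, at -35 to -26 on the opposite strand, and not in that of Ccl6. It is present in 4.51% of all 32851 promoter windows and in 7 of the 58 windows of 46 member genes (12.1%). The consensus of the interferon-stimulated response element (3.44% of all windows and 10.3% of the member windows), the STAT element TTCNNNGAA (8.30% and 13.8%) and the PU.1 core GAGGAAG (13.6% and 12.1%) were found in neither. The TATAAA element (13.6% and 17.2%) was found in the Ccl9 window at -92 to -87, at -94 to -89 on the opposite strand, where these matches overlap, and at -224 to -219 on the opposite strand.

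Ccl25, the thymus-expressed chemokine that attracts T cells through Ccr9, had the largest negative difference. It stood at 0.132, 0.503 and 2.75 FPKM in BKO, against 3.90, 4.64 and 4.01 FPKM in Ctrl. All 3 BKO libraries lay below Ctrl, but BKO-3 held a level 5.47 times that of BKO-2. The mean was 1.13 ± 1.42 FPKM in BKO and 4.18 ± 0.400 FPKM in Ctrl (SD, n = 3 each), and the log2 difference -1.48 (SE 0.397, limma with Benjamini-Hochberg adjusted p = 0.287). Without BKO-3 the log2 difference was -1.99 and the gene was called lower (limma, Benjamini-Hochberg adjusted p = 0.0176), within a range of 0.0176 to 0.750 over its alternatives. BKO-3 therefore decided this call.

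Ccl25 shares 204 exon bases with the antisense gene Elavl1 (GENCODE vM21), and the labels name no strand-specific counting, so reads there cannot be told apart. Elavl1 averaged 7.60 ± 0.378 FPKM in BKO and 8.29 ± 0.451 FPKM in Ctrl (SD, n = 3 each). RefSeq holds 2 start windows for Ccl25. The one whose downstream part opens the GENCODE transcript is shown as the contrast to the pair on chromosome 11, at chr8:4349338-4349637 on the plus strand of GRCm38.p6, with capitals for its single motif match, the TATAAA element at -16 to -11.
Ccl25: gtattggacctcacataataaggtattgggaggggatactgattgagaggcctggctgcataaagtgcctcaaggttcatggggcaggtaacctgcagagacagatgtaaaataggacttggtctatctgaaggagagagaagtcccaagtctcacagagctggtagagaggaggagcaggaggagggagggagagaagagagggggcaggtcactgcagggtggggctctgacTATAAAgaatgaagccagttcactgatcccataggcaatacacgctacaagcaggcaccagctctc
None of the NF-kB, interferon, STAT or PU.1 letters searched above occurred in this window.

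Further ligands with higher BKO levels were Cx3cl1, Ccl8 and Cxcl16. Cx3cl1, or fractalkine, is tethered to the membrane and binds Cx3cr1 on monocytes and macrophages. It stood at 2.05, 2.04 and 1.33 FPKM in BKO and 1.10, 1.02 and 0.690 FPKM in Ctrl, without overlap. The log2 difference was 0.53 (SE 0.148, limma with Benjamini-Hochberg adjusted p = 0.297). Ccl8, of the monocyte chemoattractant family, stood at 2.37, 1.54 and 1.69 FPKM in BKO and 1.44, 0.533 and 0.642 FPKM in Ctrl. Ctrl-1 lay close under the BKO libraries and the other two Ctrl libraries well below them (log2 difference 0.63, SE 0.200, limma with Benjamini-Hochberg adjusted p = 0.362). Cxcl16, a transmembrane chemokine that also takes up oxidised lipoprotein, stood at 2.87, 2.46 and 1.77 FPKM in BKO and 1.81, 1.001 and 0.746 FPKM in Ctrl. Its lowest BKO library lay under Ctrl-1, so the groups overlapped (log2 difference 0.64, SE 0.203, limma with Benjamini-Hochberg adjusted p = 0.363). Cxcl16 shares 18.3% of its exon bases with the antisense gene Zmynd15. That gene was also higher in BKO, at 0.664 ± 0.142 FPKM, against 0.419 ± 0.0433 FPKM in Ctrl (SD, n = 3 each). Its part in the level of Cxcl16 was not tested.

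Cxcl12, Ccl11, Cxcl14 and Ccl27a were among the more abundant ligands, and none had an unadjusted p below 0.05 with all 6 libraries (limma). Cxcl12, the ligand of Cxcr4 and Cxcr7, stood at 32.3, 32.6 and 30.1 FPKM in BKO and 29.8, 28.6 and 25.8 FPKM in Ctrl. The groups did not overlap, but the gap between BKO-3 and Ctrl-1 was small and the log2 difference was 0.17 (95% interval -0.01 to 0.35, limma). Ccl11, eotaxin, which attracts eosinophils, stood at 13.1, 11.3 and 14.4 FPKM in BKO and 13.5, 14.6 and 11.3 FPKM in Ctrl, with full overlap (log2 difference -0.02, 95% interval -0.30 to 0.26). Cxcl14, a chemokine that brown fat is known to release, averaged 9.04 ± 1.56 FPKM in BKO and 6.98 ± 0.952 FPKM in Ctrl (SD, n = 3 each). Its groups overlapped, with a log2 difference of 0.33, or 0.45 without BKO-3, where it was among the members with an unadjusted p below 0.05. Ccl27a, the ligand of Ccr10, averaged 10.3 ± 0.811 and 9.43 ± 1.24 FPKM in BKO and Ctrl.

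The interferon-induced ligands of Cxcr3 had differences of opposite sign. Cxcl9 stood at 8.98, 10.9 and 7.24 FPKM in BKO and 15.6, 9.55 and 7.63 FPKM in Ctrl, where Ctrl-1 was the highest of all libraries. The log2 difference was -0.21, and 0.06 without Ctrl-1. Cxcl10, which lies near Cxcl9 on chromosome 5, stood at 3.80, 5.21 and 0.999 FPKM in BKO and 2.65, 1.54 and 0.887 FPKM in Ctrl. BKO-3 held the low end of its group in both genes, and the log2 difference of Cxcl10 was 0.59 (95% interval -0.41 to 1.59, limma), or 1.07 without BKO-3. Cxcl10 shares 5.91% of its exon bases with the antisense gene Art3, which averaged 64.5 ± 11.97 FPKM in BKO and 77.0 ± 11.97 FPKM in Ctrl (SD, n = 3 each).

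**Figure D3:**
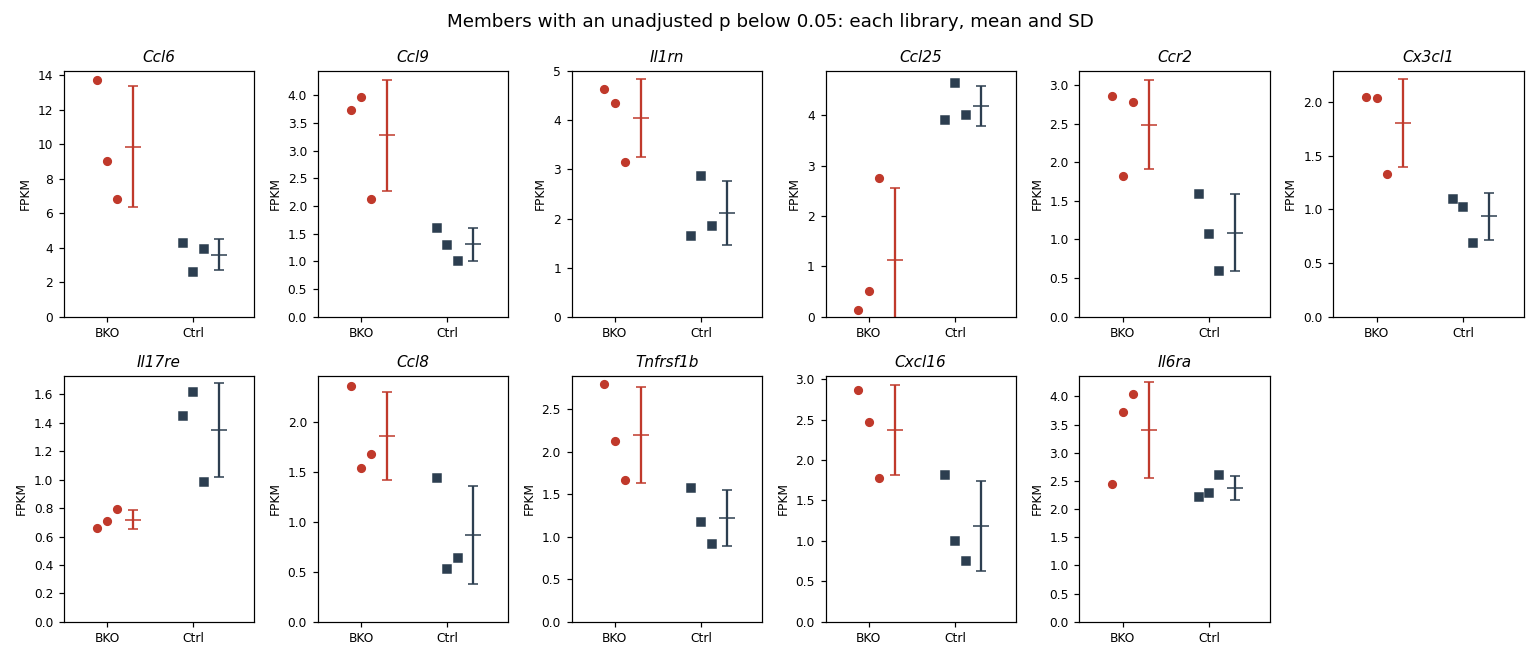
FPKM on linear axes from 0 for the 11 members with an unadjusted p below 0.05, with each library as a point, BKO left of Ctrl, and the mean and SD as bars beside the points (the lower SD bar of Ccl25 in BKO runs below 0 and is cut by the axis). The groups of Ccl6, Ccl9, Il1rn, Ccl25, Ccr2, Cx3cl1, Il17re, Ccl8 and Tnfrsf1b do not overlap, and those of Cxcl16 and Il6ra do.

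Of the 5 chemokine receptors 3 were tested, with a median log2 difference of 0.17, and Ccr2 had the largest difference. It brings monocytes out of the bone marrow and into tissue. Ccr2 stood at 2.86, 1.82 and 2.78 FPKM in BKO, against 1.59, 1.07 and 0.593 FPKM in Ctrl, and the groups did not overlap. The ratio of means was 2.29 and the log2 difference 0.76 (SE 0.204, limma with Benjamini-Hochberg adjusted p = 0.287). Cxcr4, the signalling receptor of Cxcl12, lay under the level required for testing. It stood at 0.978, 0.883 and 2.07 FPKM in BKO and 0.806, 0.498 and 0.511 FPKM in Ctrl, with the gap carried mostly by BKO-3. In whole tissue, more cells of a type and more RNA per cell cannot be told apart.

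Cxcr7, which takes up Cxcl12 without G protein signalling, was the most abundant member at 52.4, 52.9 and 61.1 FPKM in BKO and 41.4, 46.5 and 61.4 FPKM in Ctrl. Ctrl-3 lay above all BKO libraries, and the log2 difference was 0.17 (95% interval -0.17 to 0.51, limma). Ccr10, the receptor of Ccl27a, stood at 3.55, 2.56 and 4.37 FPKM in BKO and 4.58, 4.72 and 3.61 FPKM in Ctrl, with overlap (log2 difference -0.25, 95% interval -0.64 to 0.13).

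Of 6 interleukins and soluble inhibitors 5 were tested, with a median log2 difference of 0.26, and Il1rn led. It encodes the interleukin 1 receptor antagonist, which occupies Il1r1 without signalling. Il1rn stood at 4.64, 4.36 and 3.15 FPKM in BKO, against 1.64, 2.86 and 1.86 FPKM in Ctrl. The lowest BKO library lay just above Ctrl-2, and the ratio of means was 1.91 (log2 difference 0.70, SE 0.178, limma with Benjamini-Hochberg adjusted p = 0.270). The receptor Il1r1 stood at 2.24, 1.94 and 1.99 FPKM in BKO and 1.76, 1.63 and 1.88 FPKM in Ctrl, a smaller gap without overlap (log2 difference 0.15, 95% interval -0.07 to 0.37). Il18bp, which neutralises interleukin 18, stood at 3.08, 2.70 and 2.22 FPKM in BKO and 4.03, 3.22 and 2.63 FPKM in Ctrl, with overlap.

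Il34, a ligand of the macrophage growth factor receptor Csf1r, stood at 3.17, 4.65 and 3.09 FPKM in BKO and 3.28, 1.88 and 2.26 FPKM in Ctrl, where Ctrl-1 lay above 2 BKO libraries (log2 difference 0.42, 95% interval -0.01 to 0.85). The other ligand of that receptor, Csf1, is no member and averaged 2.82 ± 0.481 FPKM in BKO and 1.62 ± 0.228 FPKM in Ctrl (SD, n = 3 each; limma with Benjamini-Hochberg adjusted p = 0.248). Il15, which sustains natural killer cells and memory T cells, stood at 3.54, 3.53 and 2.97 FPKM in BKO and 2.90, 2.90 and 2.14 FPKM in Ctrl. These did not overlap, by a narrow margin (log2 difference 0.26, 95% interval -0.02 to 0.54). Il16 and Il17d averaged 1.18 ± 0.220 and 1.06 ± 0.230 FPKM in BKO, and 0.973 ± 0.257 and 0.787 ± 0.0331 FPKM in Ctrl (SD, n = 3 each).

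The interleukin receptors were the largest role with 21 members, of which 12 were tested, with a median log2 difference of 0.12. Il15ra, which presents interleukin 15 to neighbouring cells, stood at 39.1, 69.2 and 56.8 FPKM in BKO and 42.4, 41.6 and 56.5 FPKM in Ctrl, 11.03 to 26.5 times the level of Il15 itself. The spread within BKO exceeded the difference between the groups (log2 difference 0.20, 95% interval -0.29 to 0.70). Il6st, the gp130 chain shared by the interleukin 6 family, stood at 21.5, 20.39 and 22.2 FPKM in BKO and 19.98, 20.38 and 19.7 FPKM in Ctrl. The groups did not overlap, though BKO-2 and Ctrl-2 nearly coincided, and the log2 difference was 0.09 (95% interval -0.07 to 0.24). Il10rb, shared by the receptors of interleukins 10 and 22, stood at 19.7, 16.6 and 15.7 FPKM in BKO and 18.6, 22.9 and 16.5 FPKM in Ctrl, with overlap.

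Il6ra and Il17re were the receptor chains with an unadjusted p below 0.05. Il6ra, the binding chain that pairs with Il6st, stood at 2.44, 3.73 and 4.05 FPKM in BKO and 2.21, 2.28 and 2.61 FPKM in Ctrl. BKO-1 lay within the Ctrl range, and the log2 difference was 0.37 (SE 0.154, limma with Benjamini-Hochberg adjusted p = 0.483). Il17re, which forms the interleukin 17C receptor with Il17ra, stood at 0.661, 0.707 and 0.790 FPKM in BKO and 1.45, 1.62 and 0.983 FPKM in Ctrl. The BKO libraries lay close together below all Ctrl libraries (log2 difference -0.44, SE 0.130, limma with Benjamini-Hochberg adjusted p = 0.333). Il17re passed the filter only through Ctrl, where it was higher. Its partner Il17ra averaged 1.23 ± 0.317 FPKM in BKO and 0.895 ± 0.0656 FPKM in Ctrl, and Il17rc, the coding gene beside Il17re on chromosome 6, 5.92 ± 1.01 and 6.24 ± 0.938 FPKM (SD, n = 3 each). The pair Il17rc and Il17re thus lay side by side with log2 differences of -0.07 and -0.44.

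The common gamma chain Il2rg averaged 3.68 ± 0.553 FPKM in BKO and 2.89 ± 0.504 FPKM in Ctrl, and Il3ra 1.59 ± 0.151 and 1.34 ± 0.269 FPKM (SD, n = 3 each). Il4ra, the receptor of interleukins 4 and 13, averaged 4.82 ± 0.442 and 4.80 ± 0.121 FPKM, with a log2 difference of 0.00 (95% interval -0.20 to 0.21). Il11ra1 averaged 13.8 ± 2.23 FPKM in BKO and 15.0 ± 3.21 FPKM in Ctrl. Il11ra1 shares an identical run of 356 bases with its copy Il11ra2, and Ccl27a one of 210 bases with Ccl27b, so the counting could have split their reads.

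Of the 10 TNF receptors 8 were tested, with a median log2 difference of 0.22, and Tnfrsf1b and Tnfrsf1a bind TNF itself. Tnfrsf1b, the form prominent on white blood cells and endothelium, stood at 2.79, 2.13 and 1.67 FPKM in BKO, against 1.57, 1.17 and 0.915 FPKM in Ctrl. The groups did not overlap, with BKO-3 just above Ctrl-1, and the ratio of means was 1.805 (log2 difference 0.52, SE 0.165, limma with Benjamini-Hochberg adjusted p = 0.362). Tnfrsf1a, the widely expressed form that can signal cell death, stood at 40.5, 47.0 and 37.1 FPKM in BKO and 35.5, 34.9 and 39.1 FPKM in Ctrl. BKO-3 lay below Ctrl-3, and the log2 difference was 0.18 (95% interval -0.05 to 0.41). Its level was at least 14.5 times that of Tnfrsf1b in each of the 6 libraries.

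Tnfrsf12a, the receptor of the ligand TWEAK, stood at 7.31, 11.6 and 5.83 FPKM in BKO and 5.92, 6.13 and 7.02 FPKM in Ctrl, where BKO-2 was the single high library. Tnfrsf10b, the mouse death receptor of Tnfsf10, stood at 3.16, 3.07 and 2.62 FPKM in BKO and 3.56, 3.22 and 3.13 FPKM in Ctrl, with a slight overlap (log2 difference -0.12, 95% interval -0.35 to 0.10). Tnfrsf21 averaged 3.43 ± 0.704 FPKM in BKO and 2.64 ± 0.232 FPKM in Ctrl, Tnfrsf25 1.75 ± 0.387 and 2.08 ± 0.350 FPKM, and Tnfrsf14 1.46 ± 0.542 and 0.830 ± 0.176 FPKM (SD, n = 3 each), all with overlap. Tnfrsf22 and Tnfrsf23, mouse decoy receptors of Tnfsf10 that lie side by side on chromosome 7, share an identical run of 306 bases. Tnfrsf22 stood at 2.28 FPKM in BKO-3 and at 0.478 to 0.651 FPKM in the other 5 libraries, while Tnfrsf23 had its lowest value, 0.793 FPKM in BKO-3.

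Of the TNF ligands, Tnfsf10 (TRAIL, which can trigger cell death) stood at 3.93, 2.93 and 4.58 FPKM in BKO and 4.68, 3.89 and 2.39 FPKM in Ctrl, with the spread within each group larger than the difference between them. The B cell factors lay under 1 FPKM. Tnfsf13 (APRIL) stood at 0.914, 0.594 and 0.683 FPKM in BKO and 0.911, 1.01 and 0.894 FPKM in Ctrl, and Tnfsf13b (BAFF) at 0.299, 0.148 and 0.486 FPKM in BKO and 0.138, 0.222 and 0.167 FPKM in Ctrl. Both overlapped between the genotypes. Tnfsf13 shares 60.0% of its exon bases with Tnfsfm13 on the same strand (GENCODE vM21), so its level is uncertain.

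Of the 4 adhesion and other genes, all tested, none had an unadjusted p below 0.05 (limma). Vcam1, which holds white blood cells to endothelium, stood at 2.42, 2.55 and 2.37 FPKM in BKO and 2.26, 1.74 and 1.82 FPKM in Ctrl, without overlap (log2 difference 0.23, 95% interval -0.00 to 0.47). Icam1, with the same role through other integrins, stood at 1.73, 1.92 and 1.64 FPKM in BKO and 1.92, 1.66 and 2.16 FPKM in Ctrl, with overlap (log2 difference -0.07, 95% interval -0.32 to 0.17). Cd14, the lipopolysaccharide co-receptor of monocytes and macrophages, stood at 3.14, 3.65 and 4.03 FPKM in BKO and 2.63, 3.41 and 3.06 FPKM in Ctrl, with overlap. Il4i1, an amino acid oxidase named after its induction by interleukin 4, averaged 1.58 ± 0.428 and 1.60 ± 0.176 FPKM (SD, n = 3 each), but shares 83.9% of its exon bases with the antisense gene Tbc1d17. Other members that share over 10% of their exon bases with another gene were Il2rg (30.5%), Tnfrsf18 (27.2%), Il16 (15.3%), Il10rb (14.9%) and Icam1 (11.7%).

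The 16 members under 1 FPKM were not tested in the main comparison. Of these, 6 were higher in BKO without overlap (among them Cxcr4, Il7r, Il10ra, Il13ra1 and Il17d) and 0 were lower, where 15.0% and 2.80% of the 1569 genes under that level did so. Of those genes 68.6% had the higher mean in BKO, as did 12 of the 16 members. The groups overlapped in the other 10, which were Il2ra, Il2rb, Il17rd, Il1rap, Il20rb, Il27ra, Tnfsf13, Tnfsf13b, Tnfrsf18 and Tnfrsf22. No gene above 0 and below 0.486 FPKM in BKO-3 is in the table. Genes that low in BKO-3 are thus missing from the counts of higher and lower genes under 1 FPKM, which are one-sided in that respect. Il7r, the interleukin 7 receptor of lymphocytes, stood at 0.330, 0.527 and 0.525 FPKM in BKO and 0.173, 0.0740 and 0.0612 FPKM in Ctrl, a ratio of means of 4.48. Its BKO-3 value is close to the 0.486 FPKM under which BKO-3 holds no value above 0, and its Ctrl values lie below that level, so it may be in the table only through its level in BKO-3. Il10ra, the binding chain of the interleukin 10 receptor, stood at 0.876, 0.755 and 1.16 FPKM in BKO and 0.657, 0.533 and 0.343 FPKM in Ctrl. With no filter, neither passed (limma, Benjamini-Hochberg adjusted p = 0.241 for Il7r and 0.394 for Il10ra).

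The pathway around the members was read from lists of relatives under other symbols and of the NF-kB, interleukin 1 and Toll-like receptor, and JAK-STAT cascades. Of 117 such genes, 97 were tested, 0 passed the adjusted test (limma, Benjamini-Hochberg), while 16 were higher (16.5%, against 6.63% of all tested genes) and 0 lower (against 3.52%) by the unadjusted p, with a median log2 difference of 0.08. The relatives held 8 of the 16. Cd74, the receptor of the cytokine Mif and the invariant chain of antigen presentation, averaged 82.7 ± 7.18 FPKM in BKO and 47.5 ± 14.2 FPKM in Ctrl, and Lifr, which pairs with Il6st, 6.99 ± 0.912 and 5.22 ± 0.208 FPKM (SD, n = 3 each). Csf2ra, which binds a growth factor of myeloid cells, averaged 3.03 ± 0.549 and 1.66 ± 0.619 FPKM.

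In the NF-kB and TNF receptor list 1 of 38 tested genes was higher at an unadjusted p below 0.05, a share under the 6.63% of all tested genes. It was the TNF-releasing protease Adam17, at 9.77 ± 1.09 FPKM in BKO and 8.01 ± 0.896 FPKM in Ctrl, and the transcription factor Rela averaged 11.1 ± 0.283 and 10.3 ± 0.223 FPKM (SD, n = 3 each). The other 3 of the lowest p among the tested genes of that list were Bcl3, Tab3 and Map3k7. They averaged 16.4 ± 3.58, 2.06 ± 0.410 and 10.4 ± 0.167 FPKM in BKO and 13.2 ± 0.905, 2.52 ± 0.147 and 11.99 ± 1.71 FPKM in Ctrl. Of its 7 genes under 1 FPKM, not tested, 2 were higher in BKO without overlap and 0 lower (against 15.0% and 2.80% of genes under that level). These were Ikbke, at 0.957 ± 0.0847 and 0.451 ± 0.0918 FPKM, and Tnfaip2, at 1.01 ± 0.250 and 0.537 ± 0.0235 FPKM in BKO and Ctrl. In the interleukin 1 and Toll-like list 4 of 14 were higher, among them Irak3, a brake on these receptors, at 5.76 ± 0.460 FPKM in BKO and 3.75 ± 0.894 FPKM in Ctrl, and Irak2, at 12.2 ± 0.520 and 9.94 ± 1.62 FPKM. Ly86 averaged 2.82 ± 0.588 and 1.33 ± 0.692 FPKM, and the lipopolysaccharide receptor Tlr4 1.49 ± 0.181 and 1.10 ± 0.0599 FPKM. In the JAK-STAT list 3 of 27 were higher, namely Stat3, which acts downstream of Il6st, at 18.9 ± 2.36 and 15.4 ± 0.736 FPKM, Stat2 at 4.94 ± 0.746 and 3.76 ± 0.407 FPKM, and the phosphatase Ptpn6 at 1.63 ± 0.466 and 0.971 ± 0.337 FPKM in BKO and Ctrl. Socs6 had the next lowest p, at 4.68 ± 0.266 and 5.42 ± 0.207 FPKM.

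Macrophage markers were higher in BKO beside the chemokines. Of 24 fixed markers 19 were listed and 14 tested, 3 rose in BKO (Lyz2, Gpnmb and Tyrobp, limma with Benjamini-Hochberg adjusted p = 0.0195, 0.0333 and 0.0439), where 0.158% of all tested genes did. By the unadjusted p 12 of the 14 were higher, against 6.63% of all tested genes, and none was at 0 in every library. Their summed level was 242, 222 and 224 FPKM in BKO and 126, 88.0 and 112 FPKM in Ctrl, without overlap. Trem2, a receptor of lipid-laden macrophages, stood at 1.63, 1.78 and 1.32 FPKM in BKO and 0.378, 0.117 and 0.0378 FPKM in Ctrl. Its Ctrl values lie below the 0.486 FPKM under which BKO-3 holds no value above 0. Trem2 may thus be in the table only through its level in BKO-3. Cd163, known from resident macrophages, stood at 0.329, 0.507 and 0.568 FPKM in BKO and 1.23, 0.780 and 1.10 FPKM in Ctrl. Trem2 and Cd163 each averaged under 1 FPKM and were not tested. The part of macrophages in the levels of Ccl6, Ccl9, Ccl8, Ccr2, Il1rn and Tnfrsf1b was not tested.

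For the other cell types, none of the listed markers passed the adjusted test. Only 2 of 11 fixed B cell markers and 9 of 20 fixed T and natural killer cell markers were listed. For neutrophils and mast cells 3 of 14 were listed, and for dendritic cells 2 of 9. The listed genes thus stand for a part of these lists only. T and natural killer cell markers summed to 9.07 to 9.55 FPKM in BKO and 5.04 to 13.0 FPKM in Ctrl over 9 listed genes, with Ctrl-1 highest, the library that also held the most Cxcl9. The 2 listed B cell markers were both higher without overlap (against 9.06% of all tested genes) and at an unadjusted p below 0.05 (limma, against 6.63%). They summed to 6.17 to 8.54 FPKM in BKO and 2.46 to 4.53 FPKM in Ctrl. Of 12 preadipocyte and fibroblast markers 4 were higher by that p (against 6.63% of all tested genes) and 11 had a positive difference (against 51.6%). Their median log2 difference was 0.39. These summed to 470.2 to 556 FPKM in BKO and 358 to 470.4 FPKM in Ctrl, endothelial markers (13 listed) to 355 to 373 and 321 to 378 FPKM, and neutrophil and mast cell markers (3 listed) to 3.98 to 5.35 and 3.49 to 5.42 FPKM. Dendritic cell markers (2 listed) summed to 5.50 to 5.95 and 5.16 to 6.53 FPKM, erythroid markers to 502 to 511 and 426 to 678 FPKM, and skeletal muscle markers to 116 to 352 FPKM in BKO and 83.1 to 558 FPKM in Ctrl. The part of these cells in the members' levels was not tested.

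**Figure D4:**
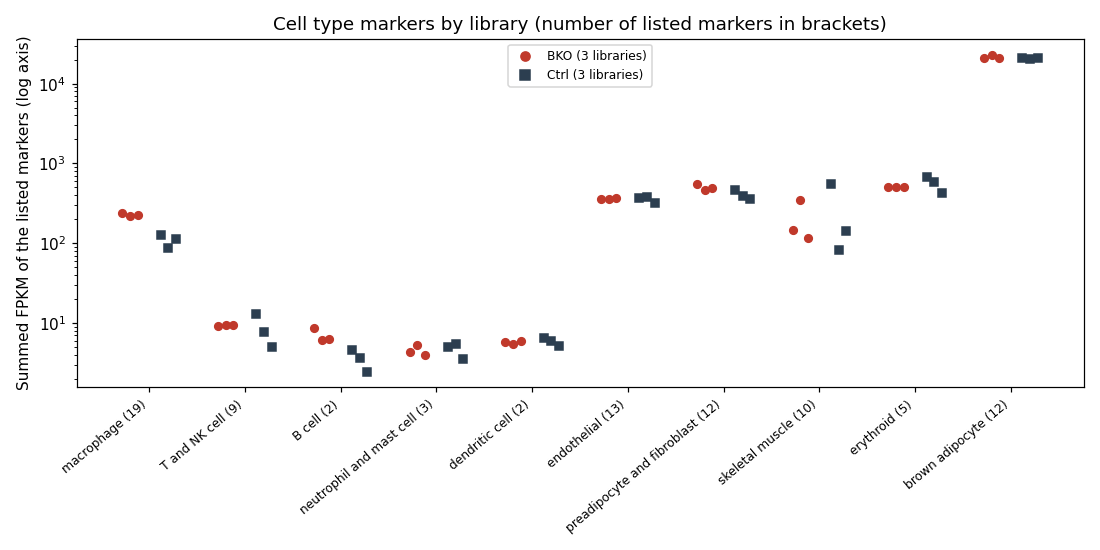
Summed FPKM of the listed markers of each cell type in each library on a log axis, with BKO (circles) left of Ctrl (squares). The 19 macrophage markers sum to 222 to 242 FPKM in BKO and 88.0 to 126 FPKM in Ctrl, while endothelial markers overlap.

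The differences kept their sign for all 11 members with an unadjusted p below 0.05 when each library was left out in turn. Ccl6 ranged from 0.97 to 1.43 on the log2 scale, Ccl9 from 0.75 to 1.08, Il1rn from 0.59 to 0.87 and Ccl25 from -1.99 to -1.12. Ccl6, Ccl9, Ccl25, Ccr2, Cx3cl1, Il17re and Il1rn stayed at an unadjusted p below 0.05 in all 6 of these fits. Cxcl16 did so in 5, Ccl8 and Tnfrsf1b in 4, and Il6ra in 1. Within the groups, BKO-3 was the lowest BKO library for 24 of the 46 tested members and Ctrl-3 the lowest Ctrl library for 25. Ctrl-1 was the highest Ctrl library for 26. The same counts were not taken over all tested genes, so these may not be particular to the members.

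**Figure D5:**
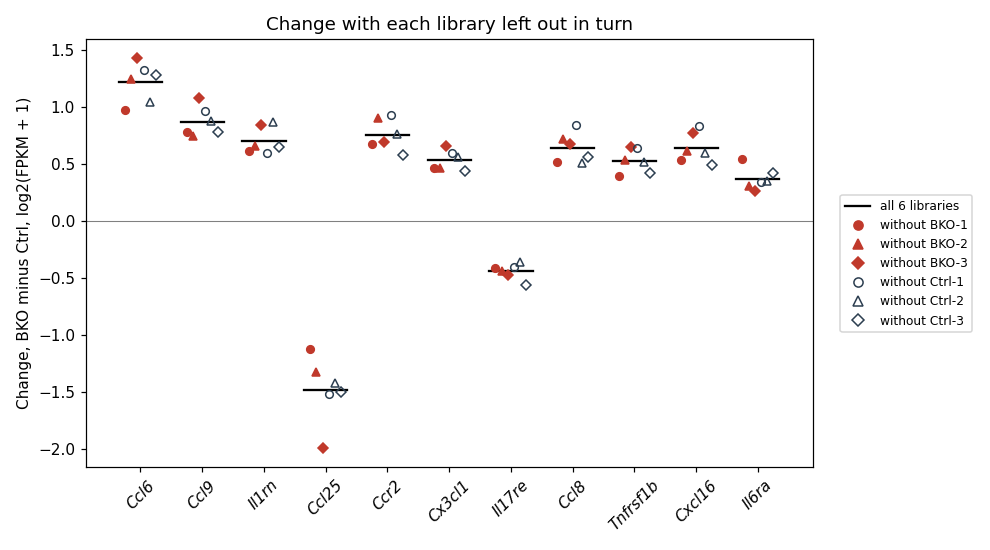
Difference between BKO and Ctrl on the log2(FPKM + 1) scale for the 11 members, with all 6 libraries (black line) and with each library left out (red for BKO, open for Ctrl). No point crosses 0, and the widest range is that of Ccl25, from -1.99 to -1.12.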

How the data were processed

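Brown adipose tissue RNA of 3 BKO and 3 Ctrl libraries was measured. Per the labels' protocols, Trizol was used for extraction and a TruSeq kit for the libraries. The submitters' processing notes name CASAVA 1.8, TopHat2 2.0.12, Cufflinks 2.2.1 and the build NCBIM37. The authors deposited FPKM for each gene, so no count model was used and depth is unknown. Columns followed the sample names in the descriptions, which call the Ctrl libraries MT and the BKO libraries WT.

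From these, 11397 genes averaging 1 FPKM or more over the 6 libraries were tested as log2(FPKM + 1) with limma 3.58.1 (R 4.3.3), using its mean-variance trend, no covariate and Benjamini-Hochberg adjustment over all of them at 0.05. The steps were tested on simulated data. Folds are ratios of mean FPKM; differences on the log2(FPKM + 1) scale understate changes of low genes. The members and lists were chosen with earlier results of these data known. Values per library were given for members with p below 0.05 and the 3 most abundant of each role, and for others chosen after their values were seen (Cxcr4, Cxcl10, Ccl5, Il1r1, Il18bp, Il7r, Il10ra, Tnfrsf22, Tnfrsf23, Trem2, Cd163); the same holds for the means of Rela. Means of Ikbke and Tnfaip2 were also given after their values were seen. Other signalling genes were the 4 of lowest p among the tested genes of each list. Promoter windows and neighbours are from RefSeq (GRCm38.p6), where all 62 members matched; overlaps and transcripts are from GENCODE vM21. Both differ from the authors' build. The values of 1 member are not reported here, though it is in the counts.

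Alternatives were other pseudocounts, filters, scalings, trend and weight settings, a replicate block, a threshold of 0.1 and leaving out each library.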

Additional observations from a re-analysis of the deposited data

How the results depend on the processing

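Across 16 alternatives, no member was called higher, and 1 was called lower, Ccl25 without BKO-3. The count of members called lower thus ranged from 0 to 1 with 1 library left out, and that of relatives and signalling genes was 0 throughout. The count of members higher at an unadjusted p below 0.05 (limma) was 9, against 6.63% of all tested genes. It was 8 to 17 when 1 library was left out, against 3.95% to 8.76% of all tested genes. It was 14 with no filter (against 7.2%) and 1 with a mean of at least 5 FPKM (against 6.32%), where 14 members were tested. The count lower was 0 with that filter (against 4.38%) and 2 to 3 with 1 library left out (against 1.83% to 5.27%). The median log2 change of members moved by less than the spread between libraries (0.124). Over all genes, 18 were called higher and 1 lower, against 33 higher at a threshold of 0.1, 11 with no filter, 9 with a mean of at least 5 FPKM, and 48 higher and 6 lower with library weights. With 1 library left out, 5 to 30 were called higher and 1 to 3 lower. Bscl2 was called in each. Among named members, the log2 change of Tnfsf10 turned to -0.031 with library weights, and to -0.046 and -0.14 without BKO-3 and Ctrl-3, in a range of -0.14 to 0.23 with 1 library left out. That of Ccl11 turned to 0.067, 0.0043 and 0.055 without BKO-2, Ctrl-1 and Ctrl-2 (range -0.11 to 0.067), and that of Cxcl9 to 0.056 without Ctrl-1 (range -0.42 to 0.056). The cause was not tested.

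Same-numbered libraries correlated at 0.196, -0.104 and -0.100 in their deviations from the group mean, and differently numbered ones at -0.126 to 0.219. Deviations within a group sum to 0, so these correlations offset each other. They cannot decide whether the replicate numbers pair the libraries. With a replicate block, 0 members were called after adjustment, where 23 of all tested genes were called higher and 2 lower. At an unadjusted p below 0.05 (limma), 12 members were higher and 2 lower, against 6.79% and 3.04% of all tested genes. Depth is unknown, so the precision of members near 1 FPKM cannot be stated.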
